A study of Glycine max with 4 samples.

Results

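Soybean chromosomes carry most of their genes in the arms, and their middle stretches are rich in repeats and condensed chromatin. The sites described here were recovered by an antibody against the protein encoded by GLYMA.07G038400. They lie in the central 50% of the length of 19 of the 20 chromosomes. This cut was made by length alone, without data on repeats, genes or chromatin. A total of 3754 sites were in this class, of 22386 sites that were found in both ChIP replicates over the whole genome (16.8%, 95% Wilson interval 16.3 to 17.3). They were chosen as replicate 1 peaks that shared 1 bp or more with a peak of replicate 2 and whose summit lay from 25% to 75% of the chromosome length, the length being the end of the last peak in either list. Chromosome 13 was left out by the rule. The 16885 shared sites in the outer 25% at each end of the same chromosomes served as the comparison.

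The letters GRF5 stand in the peak names, and in plants GRF commonly means growth-regulating factor. Growth-regulating factors are plant transcription factors that bind DNA through a WRC domain and contact coactivators through a QLQ domain, and they are known for promoting cell proliferation in growing organs. Chromatin immunoprecipitation followed by sequencing (ChIP-seq) recovers DNA crosslinked to a protein, and a peak is a stretch where ChIP fragments pile up above the background expected from the input. The groups were 2 ChIP samples and 2 input samples (total chromatin with no antibody), all from embryos of the cultivar Williams 82 at early maturation, taken from seeds of 6 to 7 mm. No genetic or drug treatment differed between them. The antibody was raised against amino acids 188 to 202 of the protein, and sites that it recovers without the protein cannot be told apart from bound ones.

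Replicate 1 had 31090 peaks and replicate 2 had 25502, and 72.0% and 89.8% of them overlapped a peak of the other list. The ChIP fragments stacked at each summit (the pileup) and the background were worked back from the fold and p-value of the peak, since no read totals were used. The smallest pileup of a called peak was 12 fragments in replicate 1 and 11 in replicate 2. All folds and p- and q-values come from the authors' peak lists. Positions are 1-based on the assembly that the authors used, which no source used here names, and the genes and sequences at the sites were not analysed here.

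Central sites were few and unevenly spread. Each chromosome held 198 ± 82.6 of them (mean ± SD, n = 19), between 86 on chromosome 4 and 422 on chromosome 8. This was 8.52 ± 3.89 sites per Mb in the central parts and 37.9 ± 5.58 in the outer parts (SD over chromosomes, n = 19). The density was lower in the centre on all 19 chromosomes, by 29.4 sites per Mb on average (two-sided sign-flip permutation test over chromosomes, 100000 resamples, p = 2e-05, the smallest these resamples can give; adjusted p = 0.00014). The rise towards chromosome ends was already known from these data when the sites were chosen, so this test is no independent support for it. Chromosomes are not experimental replicates, and the p-values here measure the spread between chromosomes only. The densities do not allow for gene density or for how well reads align.

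The contrast between centre and ends varied between chromosomes. Chromosome 4 held 3.29 sites per Mb in its centre and 37.4 in its outer parts, the largest ratio at 11.4. Chromosome 10 followed with 4.89 sites per Mb in its centre and 40.8 in its outer parts. Chromosome 8 had the mildest contrast, with 17.7 sites per Mb in its centre and 41.0 in its outer parts. Chromosomes 17 and 11 also had comparatively dense centres, with 15.3 and 15.1 sites per Mb.

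**Figure D1:**
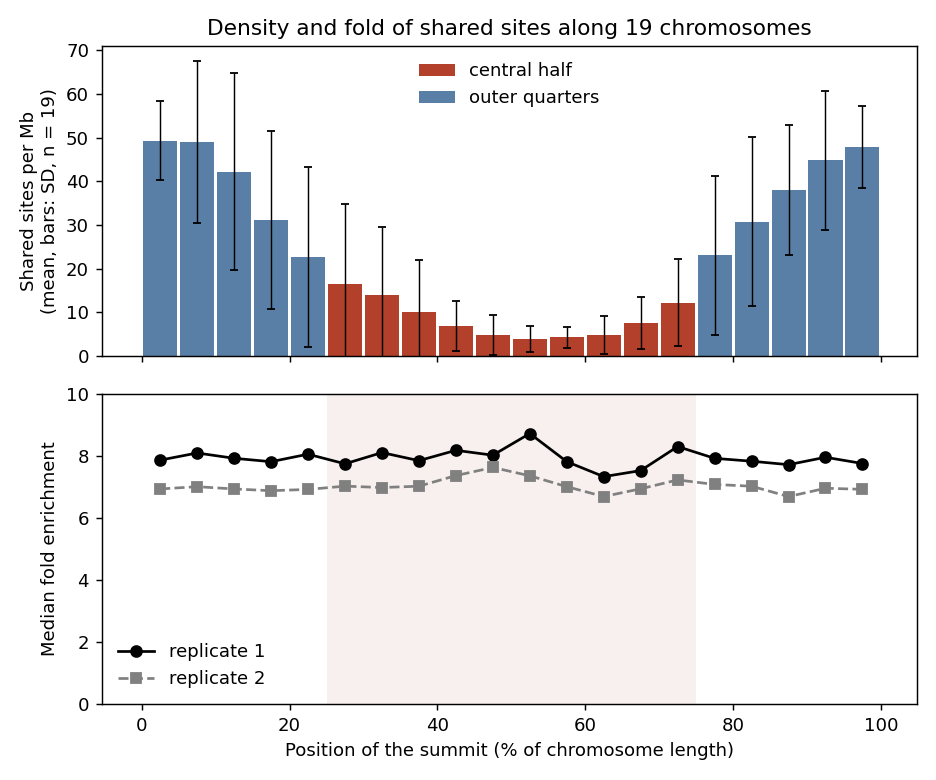
Mean density of shared sites per Mb (upper plot, bars are SD over 19 chromosomes) and median fold enrichment in each replicate (lower plot) in steps of 5% of the chromosome length. Density is lowest at 50% to 55% with 3.92 sites per Mb, while the median fold of replicate 1 stays between 7.33 and 8.72 along the whole length.

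The density fell over many steps from the ends to the middle. The stretches just inside the limits held 16.6 ± 18.2 sites per Mb at 25% to 30% and 12.2 ± 9.98 at 70% to 75% (SD over chromosomes, n = 19). The stretches just outside held 22.7 ± 20.6 at 20% to 25% and 23.1 ± 18.2 at 75% to 80%. The change in the mean was larger across the right limit, but the limits were not tested against each other. In the last 1% of the length inside the limits there were 294 sites with median folds of 7.58 in replicate 1 and 7.13 in replicate 2. The first 1% outside held 344 sites with medians of 7.97 and 6.95. The minimum was 3.92 ± 2.96 sites per Mb at 50% to 55% of the length, and the density at 45% to 65% stayed below 5 per Mb on average. The 25% to 30% and 70% to 75% stretches held 33.6% of all central sites (95% Wilson interval 32.1 to 35.1), and the middle 20% of the chromosome, from 40% to 60%, held 23.7%. On chromosome 10 the share in the marginal stretches reached 58.7%, and on chromosome 7 it was 13.7%.

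Sparse stretches and crowded ones lay side by side in the centres. Of 432 complete windows of 1 Mb, the median held 4 shared sites (interquartile range 2 to 9), and 45 windows held none (10.4%). No peak of either replicate was found in 29 of these 45. The 44 windows with at least 20 sites made up 10.2% of the windows and accounted for 44.6% of the sites counted. Chromosome 17 had the fullest window, 11 to 12 Mb with 69 shared sites, resting on 92 peaks in replicate 1 and 76 in replicate 2. Next came 15 to 16 Mb on chromosome 2 with 60, 17 to 18 Mb on chromosome 8 with 59, 10 to 11 Mb on chromosome 11 with 57 and 16 to 17 Mb on chromosome 8 with 56. The midpoints of these 5 windows lay from 27.6% to 36.7% of the chromosome length, on the left flank of the centre.

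Long site-free stretches were the other side of this pattern. The central parts held 83 stretches of over 1 Mb between neighbouring shared summits, which added up to 130 Mb or 28.9% of the 451 Mb examined. The longest, 3.70 Mb of chromosome 6, ran between summits at 30790195 and 34491097, and held 1 peak in replicate 1 and 0 in replicate 2. Chromosome 2 had 2 long stretches, of 3.41 Mb between 21898731 and 25306851 and of 3.04 Mb between 18687237 and 21724512. Another stretch on chromosome 6 spanned 2.78 Mb from 25163694 to 27940933, and chromosome 14 had one of 2.73 Mb from 24625322 to 27354256. Unpaired peaks were rare inside these 5 stretches, with 1 to 3 peaks in replicate 1 and 0 to 3 in replicate 2. The longest stretch of each chromosome ranged from 1.01 Mb on chromosome 16 to the 3.70 Mb on chromosome 6.

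Fold enrichment of central sites lay within the spread of outer sites. The median fold enrichment of central sites was 7.96 in replicate 1 (interquartile range 5.72 to 12.0) and 7.10 in replicate 2 (5.29 to 10.6). Outer sites had 7.90 (5.59 to 11.8) in replicate 1 and 6.93 (5.25 to 10.3) in replicate 2. Averaged over chromosomes, the median log2 fold of replicate 1 was 2.99 in central parts and 2.98 in outer parts, a difference of 0.01 ± 0.08 (SD, n = 19) with the centre higher on 10 chromosomes (sign-flip permutation test, adjusted p = 0.831). In replicate 2 the medians were 2.83 in central parts and 2.79 in outer parts, a difference of 0.03 ± 0.06 with the centre higher on 13 of 19 (permutation p = 0.0257, adjusted p = 0.080). The replicate 2 difference passed the threshold of 0.05 with limits at 20% and 80% of the length (0.04, adjusted permutation p = 0.000467) and with sites placed by their replicate 2 summits (0.04, adjusted p = 0.041).

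The median −log10 q of central sites was 24.3 in replicate 1 and 15.6 in replicate 2, against 24.2 and 15.0 at outer sites. Neither difference passed the test (adjusted permutation p = 0.826 in replicate 1 and 0.215 in replicate 2). A fold of at least 20 in both replicates was reached by 159 central sites (4.24%, 95% Wilson interval 3.64 to 4.93) and by 681 outer sites (4.03%, 3.75 to 4.34), where 4.07% of all shared sites on the 20 chromosomes did. A fold of at least 10 in both was reached by 877 central sites (23.4%, 22.0 to 24.7) and by 3783 outer sites (22.4%, 21.8 to 23.0), against 22.5% of all. The central share of strong sites is therefore near that of all sites, and per-chromosome shares did not differ beyond their spread (adjusted permutation p = 0.596 and 0.625).

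**Figure D2:**
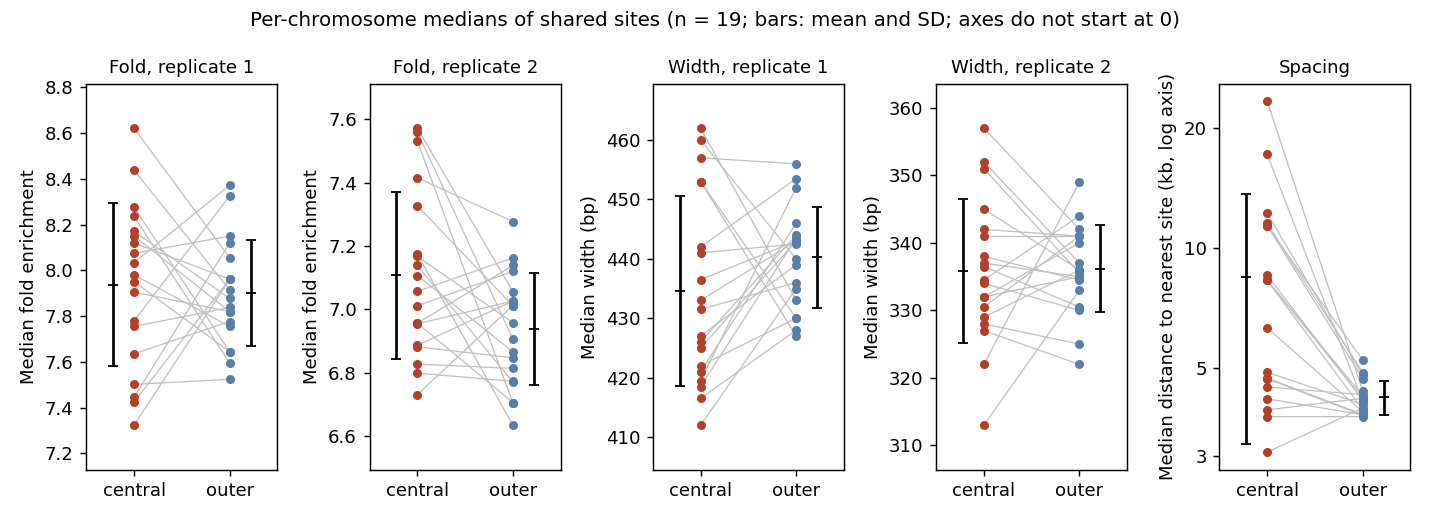
Medians of shared sites for each of the 19 chromosomes in the central part (red) and the outer parts (blue), joined by chromosome, with mean and SD beside them; y axes are fold enrichment, width in bp and distance to the nearest site in kb (log axis), and they do not start at 0. Lines of fold and width cross in both directions, while the distance is longer in the centre on 17 of 19 chromosomes.

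A larger share of central than of outer sites had the lowest background that the peak caller allows, while pooled median pileups were equal. The median central site rested on 42 fragments in replicate 1 and 28 in replicate 2, the same medians as at outer sites. Per-chromosome medians averaged 41.4 in central and 42.3 in outer parts in replicate 1, and 28.6 and 28.2 in replicate 2 (adjusted permutation p = 0.335 in each). With all replicate 1 peaks, shared or not, the pileup was lower in the centre by 1.13 fragments (adjusted permutation p = 0.016). The peak caller allows no background under a floor set by the genome-wide mean, which stood at 3.11 fragments in replicate 1 and 2.31 in replicate 2. In replicate 1, 260 central sites stood at this floor (6.93%, 95% Wilson interval 6.16 to 7.78), against 405 outer sites (2.40%, 2.18 to 2.64). In replicate 2 the numbers were 267 central sites (7.11%, 6.33 to 7.98) and 404 outer sites (2.39%, 2.17 to 2.63). The share at the floor was higher in the centre on all 19 chromosomes in both replicates, by 5.32 ± 2.62 percentage points in replicate 1 and 5.59 ± 2.94 in replicate 2 (SD, n = 19; sign-flip permutation test, adjusted p = 0.00014 in each). The median background averaged 4.25 ± 0.18 fragments in central parts and 4.39 ± 0.03 in outer parts in replicate 1 (SD, n = 19; adjusted permutation p = 0.00177), lower in the centre on 13 chromosomes. With limits at 20% and 80% of the length this difference was −0.10 fragments and lost its call (adjusted permutation p = 0.050). In replicate 2 the averages were 2.99 ± 0.04 in central parts and 3.00 ± 0.03 in outer parts (adjusted permutation p = 0.458). The replicate 2 difference passed with limits at 30% and 70% (−0.028, adjusted permutation p = 0.000112), with limits at 20% and 80% (−0.021, 0.00216) and with means (−0.076, 0.00375). The fold divides by the background, and the part of this difference in the folds was not tested.

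Peak widths overlapped widely. Central sites had a median width of 435 bp in replicate 1 (10% to 90% range 281 to 699) and 334 bp in replicate 2 (214 to 560). Outer sites had 440 bp (282 to 741) in replicate 1 and 336 bp (216 to 577) in replicate 2. The per-chromosome medians were 435 ± 16.0 bp in central parts and 440 ± 8.44 bp in outer parts in replicate 1, and 336 ± 10.7 and 336 ± 6.49 bp in replicate 2 (SD, n = 19). Neither difference passed the test (−5.68 bp, adjusted permutation p = 0.335, and −0.32 bp, adjusted p = 0.942).

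Means, which weigh broad peaks more, differed more than medians. With means in place of medians, central minus outer width was −14.2 bp in replicate 1 (adjusted permutation p = 0.00807) and −5.66 bp in replicate 2, which did not pass (adjusted p = 0.228). Width follows strength, with a Spearman's rho of fold and width across central sites of 0.70 in replicate 1 and 0.68 in replicate 2, where sites share a library and the pileup enters both values. Within quintiles of fold, the difference in medians was −5.83 ± 13.9 bp in replicate 1 and −5.24 ± 10.2 bp in replicate 2 (SD, n = 19), which did not pass (adjusted permutation p = 0.195 and 0.110). Within the same quintiles, means gave −17.3 bp in replicate 1 (adjusted permutation p = 7.6e-05) and −9.16 bp in replicate 2 (adjusted p = 0.0142). In the strongest quintile of replicate 1, with folds above 13.2, mean widths were 653 bp at 797 central sites and 689 bp at 3336 outer sites. In replicate 2 the strongest quintile, above 11.5-fold, averaged 519 bp at 789 central sites and 543 bp at 3339 outer sites. Widths of at least 1000 bp in both replicates were found at 14 central sites (0.373%, 95% Wilson interval 0.222 to 0.625) and 110 outer sites (0.651%, 0.541 to 0.785). A replicate 1 peak covered 2 or more replicate 2 peaks at 62 central sites (1.65%, 1.29 to 2.11) and 442 outer sites (2.62%, 2.39 to 2.87).

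The broadest central sites, ranked by the narrower of the 2 peaks, were spread over 4 chromosomes. The first was on chromosome 1 at 29734109 to 29735788, near the middle of the chromosome at 52.4% of its length, and was 1680 bp wide in replicate 1 and 1572 bp in replicate 2. Its folds were 33.6 and 29.9, but the 2 summits lay 758 bp apart, the largest such distance among all central sites. Chromosome 18 held a site at 19261969 to 19263520 with widths of 1552 and 1513 bp and folds of 27.8 and 32.6, and one at 40103240 to 40104537 with widths of 1298 and 1265 bp. A site on chromosome 19 at 34805001 to 34806495 was 1495 and 1469 bp wide at folds of only 8.61 and 8.78, and one on chromosome 7 at 32273041 to 32274314 was 1274 and 1211 bp wide at 30.1- and 26.5-fold. At the site on chromosome 19 a broad peak thus went with a fold close to the central median.

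The distance to the nearest site was longer in the centre. The nearest shared site lay a median of 5758 bp from a central site (interquartile range 1736 to 29818) and 4179 bp from an outer site (1643 to 11676). Per chromosome the median distance averaged 8.44 ± 5.23 kb in central parts and 4.21 ± 0.41 kb in outer parts (SD, n = 19). On the log10 scale the difference was 0.24 ± 0.22, with longer distances in the centre on 17 of 19 chromosomes (adjusted permutation p = 0.00123). Distance and density come from the same summits, and the lower density was known when the sites were chosen. This test is therefore no independent support either, and a comparison at matched local density is given below. The exceptions were chromosome 5, with medians of 3.06 kb in its centre and 3.95 kb in its outer parts, and chromosome 2, with 3.91 and 4.19 kb. The longest central medians were 23.4 kb on chromosome 16 and 17.2 kb on chromosome 4.

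The difference lay mainly in the long distances. A neighbour within 1 kb was present for 11.1% of central sites (95% Wilson interval 10.1 to 12.1) and 11.7% of outer sites (11.2 to 12.2). Within 2 kb it was 28.4% (27.0 to 29.9) of central sites and 30.3% (29.6 to 31.0) of outer sites, where 30.0% of all shared sites on the 20 chromosomes had one. Within 10 kb it was 58.2% of central sites and 71.4% of outer sites. More than 100 kb separated 419 central sites from any other (11.2%, 10.2 to 12.2), against 131 outer sites (0.776%, 0.654 to 0.920). The per-chromosome share within 2 kb averaged 27.6 ± 5.11% in central parts and 30.2 ± 1.75% in outer parts, lower in the centre on 14 of 19 chromosomes (permutation p = 0.0430, adjusted p = 0.110). This difference did pass with all peaks of either replicate alone and with 3 other settings given in the closing section.

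**Figure D3:**
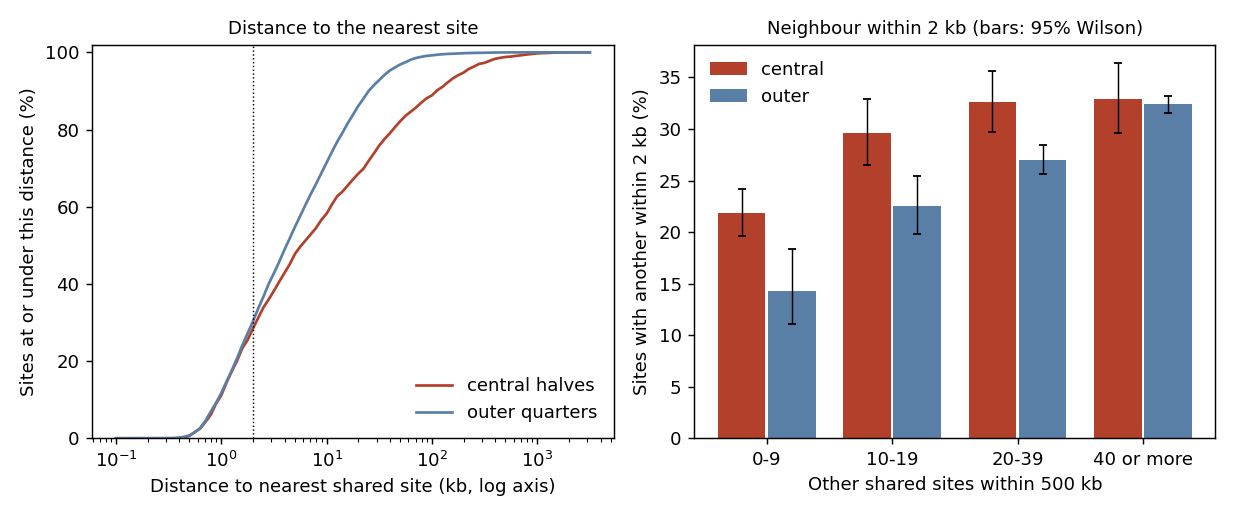
Cumulative share of sites by distance to the nearest shared site (left, log axis, dotted line at 2 kb), and the share with another site within 2 kb by the number of other shared sites within 500 kb (right, bars are 95% Wilson intervals). Curves of central and outer sites run together up to about 2 kb and part beyond it, with 58.2% of central and 71.4% of outer sites having a neighbour within 10 kb.

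Nearest distances were a smaller part of the mean spacing in the central than in the outer parts. The median nearest distance was 0.060 ± 0.024 of the mean spacing in the central parts and 0.158 ± 0.016 in the outer parts (SD, n = 19), lower in the centre on all 19 chromosomes (adjusted permutation p = 0.00014). With mean in place of median distances, the ratio was 0.358 in the central parts and 0.402 in the outer parts, a smaller difference of −0.044 that still passed (adjusted permutation p = 0.0305). The mean spacing of a whole central part includes its crowded flanks and its empty stretches, so sites were also compared at matched local density. Among sites with 0 to 9 others within 500 kb, 21.9% of 1258 central sites (95% Wilson interval 19.7 to 24.2) and 14.3% of 356 outer sites (11.1 to 18.3) had a neighbour within 2 kb. With 10 to 19 others it was 29.6% of 784 central sites (26.5 to 32.9) and 22.5% of 866 outer sites (19.9 to 25.4). With 20 to 39 others it was 32.6% of 982 central sites and 27.0% of 3840 outer sites, and with 40 or more it was 32.9% of 730 central sites and 32.4% of 11823 outer sites. Averaged over these classes, the share was higher in the centre by 6.00 ± 8.05 percentage points, on 16 of 19 chromosomes (SD, n = 19; permutation p = 0.0046, adjusted p = 0.0184). The direction held but the call was lost under 5 of 10 other settings, among them limits at 30% and 70% of the length (2.75 points) and replicate 2 peaks alone (5.55 points). The distance to the nearest site at matched local density did not differ beyond its spread (−0.07 ± 0.28 on the log10 scale, adjusted permutation p = 0.458).

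Close groups were mostly pairs in central and outer parts alike. The central parts held 484 runs of sites at most 2 kb from the next, of which 401 were pairs, 68 were triplets and 15 held 4 or more (3.10% of the runs). The outer parts had 2266 runs, of which 1823 were pairs, 344 were triplets and 99 held 4 or more (4.37%). The longest central run held 5 sites in 3.96 kb on chromosome 9, between summits at 36765854 and 36769813, with lower-of-2 folds from 3.57 to 22.8, and the longest outer run held 9. This run was named after its values were seen. Among central sites, those with a neighbour within 2 kb had a higher log2 fold than those without in replicate 1, 3.11 ± 0.17 and 2.95 ± 0.07 (SD, n = 19), higher on 15 of 19 chromosomes (sign-flip permutation test, adjusted p = 0.0168 over 8 tests within the central parts). In replicate 2 the values were 2.88 ± 0.15 with a neighbour and 2.81 ± 0.06 without (adjusted permutation p = 0.201). The replicate 2 difference passed with means, at 0.09 (adjusted permutation p = 0.017), and with all replicate 2 peaks, at 0.12 (adjusted p = 0.0068). They were also wider in replicate 1, at 452 ± 29.7 bp with a neighbour and 428 ± 19.95 bp without (adjusted permutation p = 0.0271), and in replicate 2 the widths were 343 ± 25.7 bp with a neighbour and 332 ± 17.3 bp without (adjusted p = 0.358). With means the width difference of replicate 2 was 13.5 bp and passed (adjusted permutation p = 0.0438), and with sites placed by their replicate 2 summits that of replicate 1 was 50.2 bp. In that last setting a replicate 1 peak that covers 2 replicate 2 peaks counts at each of them, often as its own close neighbour. The 50.2 bp is therefore not comparable with the main difference. Both calls of replicate 1 were lost among sites of −log10 q at least 10 and with a reciprocal overlap of 50% (adjusted permutation p = 0.0762 to 0.276), and the call on width also with summits within 100 bp (0.152). Sites with and without a neighbour were not tested against each other in the outer parts.

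Remote sites had lower folds than those with a close neighbour in central and outer parts alike, given here without a test. The 419 central sites over 100 kb from any other had median folds of 7.08 in replicate 1 and 6.85 in replicate 2, and 16.2% of them reached 10-fold in both. The 1067 with a neighbour within 2 kb had medians of 8.82 and 7.39, and 28.2% of them reached 10-fold in both. The 131 outer sites over 100 kb from any other had medians of 6.85 and 6.84, and 22.1% of them reached 10-fold in both. The 5111 outer sites with a neighbour within 2 kb had medians of 8.46 and 7.19, and 25.8% of them did. The most remote central site, named after its values were seen, lay on chromosome 10 at 20277708 to 20278278, 1898 kb from the next. It had folds of 9.07 and 7.70, from 40 fragments in replicate 1 (95% exact Poisson interval 28.6 to 54.5) and 25 fragments in replicate 2 (16.2 to 36.9). Position within the centre made no difference in fold or width that passed a test. The middle 20% of the chromosome and the marginal stretches had median folds of 8.16 and 8.09 in replicate 1 and of 7.34 and 7.10 in replicate 2 (adjusted permutation p = 0.971 and 0.358), and median widths of 438 and 437 bp in replicate 1 and of 335 and 334 bp in replicate 2 (adjusted p = 0.971 in each). The median distance to the nearest site was 9.35 kb in the middle 20% and 5.07 kb in the marginal stretches, which was not tested. With all replicate 1 peaks, shared or not, the middle was wider by 20.4 bp (adjusted permutation p = 0.0322, over fewer tests than in the main comparison).

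Recovery of peaks in the other replicate gave no difference that passed a test. Of 5203 central peaks of replicate 1, 72.2% (95% Wilson interval 70.9 to 73.4) had a counterpart in replicate 2, and of 23445 outer peaks 72.0% (71.4 to 72.6) had one. Of 4242 central peaks of replicate 2, 89.9% (89.0 to 90.8) had a counterpart in replicate 1, and of 19285 outer peaks 89.8% (89.3 to 90.2) had one. The per-chromosome differences were 0.04 ± 1.93 and −0.15 ± 3.02 percentage points (SD, n = 19; adjusted permutation p = 0.942 and 0.890). Matched on fold they were −0.42 ± 1.75 and −0.49 ± 2.76 points (adjusted permutation p = 0.458 and 0.596). In the weakest 20% of replicate 1 peaks, up to 4.44-fold, 33.3% of central peaks (30.5 to 36.3) and 38.2% of outer peaks (36.8 to 39.7) were recovered. In the next 20% the order was turned, with 53.3% of central peaks (50.3 to 56.3) and 49.7% of outer peaks (48.3 to 51.1), and these classes were not tested one by one.

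**Figure D4:**
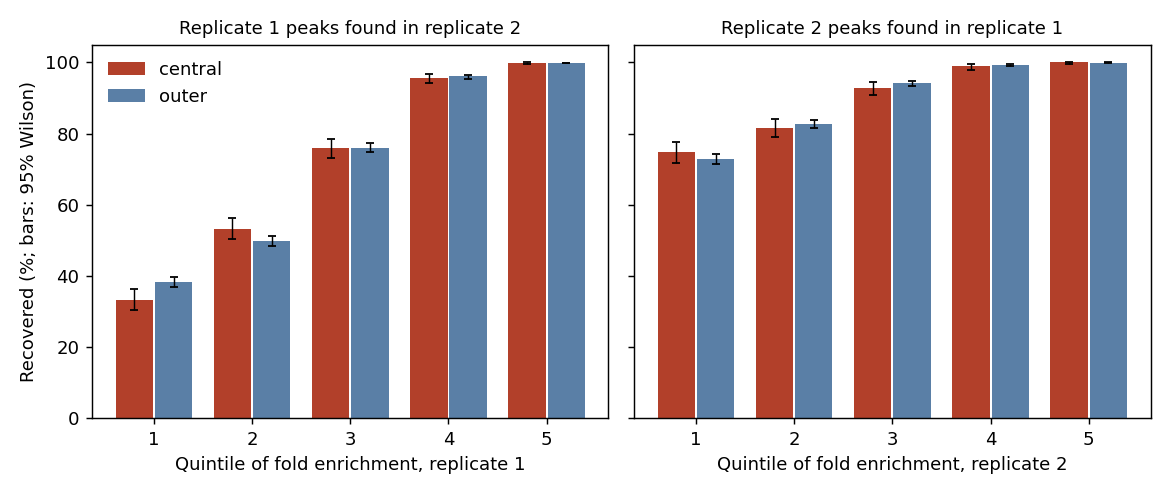
Share of peaks of each replicate that overlap a peak of the other, by quintile of fold enrichment, for central (red) and outer (blue) peaks of 19 chromosomes; bars are 95% Wilson intervals for counting error. Recovery follows fold, with 33.3% of central and 38.2% of outer peaks in the weakest quintile of replicate 1 and 99.9% of both in the strongest.

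Strong peaks seldom lacked a counterpart in either zone. Above 10-fold, 2 of 1286 central and 8 of 5729 outer peaks of replicate 1 had none, and in replicate 2 it was 1 of 1068 central and 1 of 4508 outer peaks. The strongest of the central ones, named after their values were seen, lay at 13066658 to 13067746 on chromosome 8 and had 19.4-fold enrichment from 101 fragments in replicate 1. Another lay on chromosome 8 at 19094063 to 19094432 with 11.1-fold in replicate 1, and the 1 of replicate 2 lay on chromosome 1 at 23402684 to 23403000 with 10.1-fold. Shared central sites were also compared between replicates. The median distance between their summits was 29 bp, against 31 bp at outer sites, and the per-chromosome difference of −2.08 ± 3.53 bp did not pass (SD, n = 19; permutation p = 0.0197, adjusted p = 0.069). It passed under 3 other settings, with −2.0 to −3.39 bp. The folds of the 2 replicates differed by at most 2-fold at 95.1% of central sites (95% Wilson interval 94.4 to 95.8) and 95.1% of outer sites (94.8 to 95.4). Spearman's rho of the 2 folds was 0.75 across 3754 central sites and 0.74 across 16885 outer sites, as a description, since sites of 1 library are not independent.

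Peaks over a very high background were more frequent in the centre in replicate 2. A background above 20 fragments was recovered for 35 of its 4242 central peaks (0.825%, 95% Wilson interval 0.594 to 1.15) and 64 of its 19285 outer peaks (0.332%, 0.260 to 0.424). In replicate 1 it was 1 of 5203 central peaks and 3 of 23445 outer peaks. Only 1 of the 35 central peaks had a counterpart in replicate 1, their median fold was 1.66, and they lay on 14 chromosomes. Their removal changed no call among the shared sites. A difference between the chromosome parts in this share was not tested.

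The strongest central sites were picked by their folds, so that their height is no result in itself. Ranked by the lower of the folds in both replicates, the first 20 lay on 13 chromosomes and had mean folds between 35.9 and 57.2. The lowest of these lower-of-2 folds was 34.4, a value reached by 20 central sites (0.533%) and 71 outer sites (0.420%). The highest lower-of-2 fold was 56.2 in the central parts and 62.1 in the outer parts. First came the site at 13786523 to 13787332 on chromosome 14, at 28.2% of the length. It had folds of 58.3 and 56.2 in replicates 1 and 2 (mean 57.2 ± 1.51, SD, n = 2). Its summit held 308 fragments in replicate 1 (95% exact Poisson interval 275 to 344) and 226 fragments in replicate 2 (197 to 257). Its summits, at 13786898 and 13786862, were 36 bp apart.

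The second, at 25636560 to 25637644 on chromosome 16, had folds of 59.8 and 52.2 on 288 and 233 fragments. The third, at 32341262 to 32341935 on chromosome 9, had folds of 51.4 and 56.5, and its nearest shared site was 46.7 kb away. Chromosome 18 held a site at 40562315 to 40563044 with folds of 53.9 and 48.2, and a site at 21108551 to 21109374 with folds of 49.0 and 46.2. The lower-of-2 folds of neighbouring ranks differed by less than the average spread between replicates, an SD of 4.17 over the 20 sites. Mean folds, which did not set the ranks, differed by more in places, as with 35.9 at rank 19 and 41.6 at rank 20.

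Some of the 20 sites lay between 40% and 60% of the chromosome length. On chromosome 8, the site at 21878124 to 21879042 (folds of 44.2 and 53.8) and the one at 21875998 to 21876612 (36.7 and 40.2) had summits 2.08 kb apart at 45.8% of the length. On chromosome 15, the site at 25232239 to 25232921 lay at 48.8% of the length, with folds of 37.1 and 38.5. Further sites between 40% and 60% were on chromosome 7 at 19714541 to 19715327 (38.8 and 45.7) and on chromosome 14 at 21075927 to 21076520 (35.3 and 37.7). A total of 5 of the 20 lay in this middle 20%, 5 in the marginal stretches and the rest between. Of all central sites, 23.7% lay in the middle 20% and 33.6% in the marginal stretches, so the count in the middle is near the share of all central sites there. Replicate 1 gave the higher fold at 10 of the 20, and 7 of the 20 had another shared site within 2 kb. Of all central sites, 61.3% had the higher fold in replicate 1 and 28.4% had another within 2 kb. The counts were not tested against these shares. Their median widths were 799 bp in replicate 1 and 680 bp in replicate 2.

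**Figure D5:**
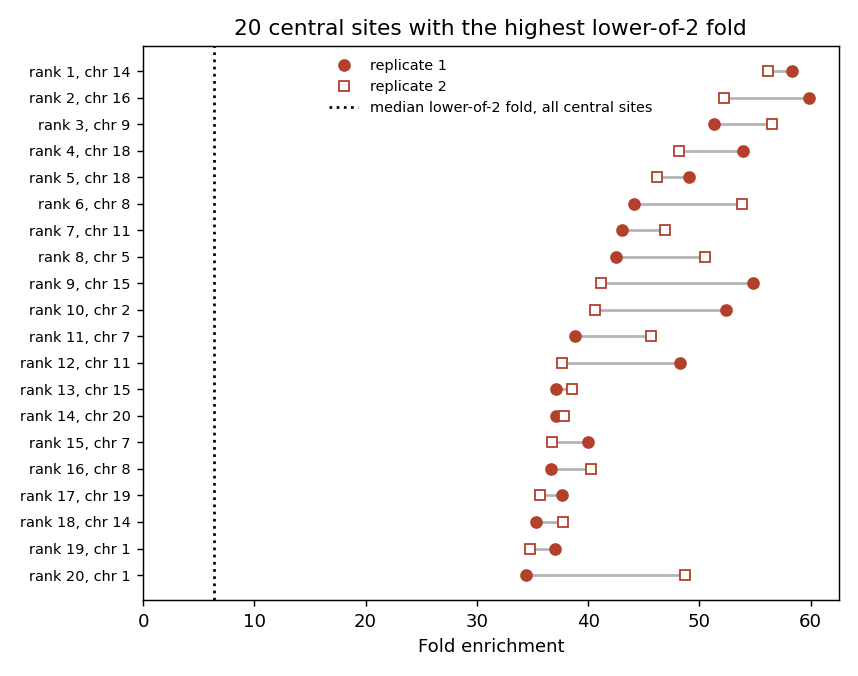
Fold enrichment in replicate 1 (filled circles) and replicate 2 (open squares) of the 20 central sites ranked first by their lower-of-2 fold; the dotted line marks the median lower-of-2 fold of all central sites, 6.40. Every one of the 20 lies at 34.4-fold or more in both replicates.

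The remaining sites of the 20 included 3 with a wide gap between replicates. On chromosome 1, the site at 20346230 to 20346829 had folds of 34.4 and 48.7, on chromosome 15 the site at 16727917 to 16728759 had 54.8 and 41.2, and on chromosome 2 the site at 15046593 to 15047502 had 52.4 and 40.6. The other 7 were on chromosomes 11 (9929292 to 9929947 and 24677215 to 24678057), 5 (25696061 to 25696725), 20 (35092596 to 35093498), 7 (17276436 to 17277286), 19 (37381002 to 37381517) and 1 (36876978 to 36877937), with mean folds from 35.9 to 46.5. The strongest central site of each remaining chromosome was lower. It reached a mean fold of 34.0 ± 6.23 on chromosome 6, 33.9 ± 9.47 on chromosome 10, 33.4 ± 5.41 on chromosome 3, 30.2 ± 2.37 on chromosome 17, 29.9 ± 4.09 on chromosome 12 and 28.8 ± 1.23 on chromosome 4 (SD, n = 2 each). That of chromosome 3, at 23010159 to 23010911, lay at 50.3% of the length. Each of the 19 centres held a site of at least 27-fold in both replicates, including that of chromosome 4 with its 86 sites.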

How the data were processed

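ChIP-seq of 2 ChIP and 2 input samples gave 1 peak list per ChIP replicate. Per the submitters' processing notes the tools were Bowtie 0.12.7, a read aligner, and MACS2, a peak caller; no source used here names the assembly or the MACS2 version. The deposited lists give a fold (a linear ratio of ChIP to background), −log10 of the p-value and q-value, a score (10 times −log10 q) and the summit. The inputs have no list of their own and act through the peak calling. Samples were grouped by title. Nothing says whether the replicates came from separate plants, so their spread may be technical.

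Pileups and backgrounds were solved from fold and p-value as a whole number of fragments with a Poisson tail, where the worst peak of replicate 1 was off by 0.072% of a fragment and that of replicate 2 by 0.58%. They are not read totals. Intervals cover counting error only. Each measure was compared as the per-chromosome difference, central minus outer (19 pairs, two-sided sign-flip permutation test, 100000 resamples), with Benjamini-Hochberg adjustment. The main comparison was adjusted over 28 tests, and over 8 within the central parts. Each other setting was adjusted over its own tests. These were fewer in some settings, such as those with 1 replicate alone, so adjusted p-values are not fully comparable between settings. The replicate 2 peak with the nearest summit was joined to each site. Named sites were the 20 highest by lower-of-2 fold, the highest of each chromosome, and the 5 densest windows, longest stretches and broadest sites. Methods were tested on simulated data. Members, rules and lists were chosen with earlier results of these data known. Python 3.11.15, numpy 2.4.6, scipy 1.17.1, pandas 2.3.3 and matplotlib 3.10.9 were used.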

Additional observations from a re-analysis of the deposited data

Results flagged for a closer look

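Chromosome 13, which the comparisons leave out, held 877 shared sites in its central part. They drew attention because a signal lies in data outside the main measurement. This is 38.4 sites per Mb in its centre and 32.2 in its outer parts. Central and outer sites of chromosome 13 had median folds of 7.93 and 7.78 in replicate 1, and a neighbour within 2 kb was present for 30.8% of central and 32.3% of outer sites. Unplaced scaffolds, also outside the comparisons, held 134 shared sites.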

How the results depend on the processing

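All values are central minus outer unless stated. Of 333 recomputed values under 11 other settings, 262 kept their direction and their side of the threshold, and the cause of the other changes was not tested. Lower density, longer nearest distance, its ratio to the mean spacing and the share of sites at the background floor kept their direction and call in each of their alternatives. Without 1 chromosome, density was lower in the centre by 29.0 to 29.7 sites per Mb. Values that turned direction concern differences that had not passed, and of these only the middle against the margin in width of all replicate 1 peaks (20.4 bp) passed. The adjustment in that setting ran over fewer tests than in the main comparison. With limits at 30% and 70% of the length, the share of sites above 10-fold differed by −0.53 points and above 20-fold by −0.15 points, the log2 ratio of the replicates by −0.0118, replicate 2 width by 0.13 bp and matched recovery of replicate 1 by 0.35 points; the neighbour share was −4.58 points and 2.75 at matched density, the replicate 2 background −0.028 and the summit distance −2.0 bp. With limits at 20% and 80%, −log10 q of replicate 1 differed by 0.16, the replicate 2 log2 fold by 0.036, the neighbour share by −2.46 points, the backgrounds by −0.10 and −0.021 fragments and the replicate 2 pileup by −0.026. With −log10 q of at least 10, which keeps fewer peaks, density differed by −19.3 per Mb and log10 nearest distance by 0.40, matched log10 distance gave 0.051, the log2 ratio −0.0118, replicate 2 width 0.92 bp and the matched neighbour share 5.91 points; the middle minus margin gave log2 folds of −0.097 and −0.047 and a replicate 2 width of −6.97 bp. With means over sites, −log10 q of replicate 1 gave 0.12, the log2 ratio −0.0067, widths −14.2 bp in replicate 1 and, matched, −17.3 and −9.16 bp, the replicate 2 background −0.076 and the summit distance −3.39 bp; middle minus margin gave −0.0056 in replicate 1 log2 fold and −1.38 bp in replicate 2 width. One-to-one pairs gave recoveries of replicate 2 of 0.73 and, matched, 0.35 points. Positions from replicate 2 gave 0.038 in its log2 fold, −0.0029 in the log2 ratio, −3.86 points in the neighbour share and −2.74 bp in summit distance; middle minus margin gave −0.0042 in replicate 1 log2 fold and widths of 0.87 and −0.61 bp. With these positions a replicate 1 peak that covers 2 replicate 2 peaks counts at each of them, which enters the neighbour share. A reciprocal overlap of 50% gave 4.11 points in the matched neighbour share, recoveries matched on fold of 0.85 and 1.75 points, an unmatched one of 2.20 in replicate 2, and 0.18 bp in replicate 1 width of middle minus margin. Summits within 100 bp gave −0.0010 in replicate 1 log2 fold, −0.0034 in the log2 ratio, 4.88 points in the matched neighbour share, 0.74 bp in replicate 2 width, matched recoveries of 0.18 and 0.84 points and an unmatched one of 1.32. Without backgrounds over 20, recovery of replicate 2 gave 0.43 and, matched, 0.029 points. All peaks of 1 replicate alone gave neighbour shares of −4.94 to −4.26 points, matched ones of 5.55 to 5.78, shares above 10-fold of −0.067 to 1.66 points, 0.21 bp in replicate 2 width and −1.13 in the replicate 1 pileup; middle minus margin gave −0.0064 in replicate 2 log2 fold and widths of 20.4 bp (replicate 1 peaks) and −1.71 bp (those of replicate 2). Shares and recoveries have no median, so means over sites changed nothing in them. Of ChIP against input, the groups that share replicate numbers, no paired analysis was possible because only the ChIP samples have peak lists here. Depth limits these results: peaks under 12 fragments in replicate 1 or 11 in replicate 2 were not called.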
